A study of Mus musculus with 14 samples.

Results

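The distal 25 Mb of mouse chromosome 10, from 105 to 130 Mb in build GRCm38, held 440 of the 25431 H3K4me3 peaks and 514 of the 32965 putative enhancers in the deposited lists. The segment carries the genes for Mdm2, Cdk4 and Hmga2. It was chosen on measured values, because the density of H3K4me3 peaks far from transcription start sites (TSSs) was high there in these same lists. That density is therefore given below as a description and without a test. The ChIP-seq libraries were made from iMEF cells, an immortalised line of mouse embryo fibroblasts. In the clone studied, NG3, exon 4 of the floxed endogenous Ash2l gene had been deleted by Cre-ER, and a lentiviral fusion of a mutant FKBP12 domain with human ASH2L took the place of the missing protein. dTAG links this domain to the E3 ligase component Cereblon and so leads to degradation of the fusion. The labels describe 12 H3K4me3 libraries, 2 each from untreated cells and from cells given dTAG for 30 min, 2 h, 4 h, 8 h or 16 h, and 2 input libraries, 1 untreated and 1 after 16 h of dTAG. All groups, controls included, carried the Ash2l deletion and the fusion, and all came from 1 clone. The peak list is pooled over the H3K4me3 libraries, treated and untreated. The enhancer list was defined by the authors from H3K4me1, H3K27ac and ATAC signals of control samples, not from these libraries. Both lists give positions only, so no value below has a replicate error and no time points were compared. The lists hold no read counts, and the methods give for depth only a planned minimum of raw reads per library, so the depth reached is not analysed here.

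H3K4me3 is laid down by the KMT2 complexes, of which ASH2L is a core subunit, and is found mainly around the start sites of genes that are active or ready to be transcribed. Active enhancers carry mostly H3K4me1 together with H3K27ac and are accessible, and weaker H3K4me3 can be seen at some of them. Mdm2 encodes the ubiquitin ligase that keeps p53 low and is itself a p53 target gene. Cdk4 encodes the kinase that acts with D-type cyclins in the G1 phase of the cell cycle, and Hmga2 encodes a DNA-binding architectural protein of embryonic and proliferating cells. Throughout, a peak is called a promoter peak when its centre lies within 1 kb of any annotated TSS and a TSS-distal peak otherwise.

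Sequences of the 3 genes and of the 3 kinds of region that recur below are given first, to show their base composition. Of the 6, those of Mdm2, Hmga2, Ctdsp2 and the shortest peak lie in an H3K4me3 peak, that of Cdk4 lies in the gap between the 2 peaks at its start, and the enhancer overlaps 0 peaks. All are reference sequence of GRCm38 on chromosome 10, written 5′ to 3′ and 200 bases long, with CpG dinucleotides in capitals. The Mdm2 sequence precedes an internal TSS that lies in the wide Mdm2 peak (chr10:117710293-117710492, minus strand). The Cdk4 sequence precedes the 5′ end of the gene (chr10:127063334-127063533, plus strand), and the Hmga2 sequence precedes the 5′ end of Hmga2 (chr10:120476470-120476669, minus strand). The next sequences are the centre of the widest TSS-distal peak of the segment, at Ctdsp2 (chr10:126979981-126980180), the whole of the nearest TSS-distal peak to Mdm2 among those of the shortest width, 923 kb away (chr10:118633570-118633769), and the centre of the enhancer nearest to the 5′ end of Mdm2 (chr10:117717943-117718142), all on the plus strand.
Mdm2 promoter: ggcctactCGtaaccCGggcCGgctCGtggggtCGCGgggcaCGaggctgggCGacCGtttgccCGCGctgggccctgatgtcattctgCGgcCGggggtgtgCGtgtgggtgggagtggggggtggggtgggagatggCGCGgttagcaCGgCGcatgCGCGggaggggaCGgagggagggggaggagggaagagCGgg
Cdk4 promoter: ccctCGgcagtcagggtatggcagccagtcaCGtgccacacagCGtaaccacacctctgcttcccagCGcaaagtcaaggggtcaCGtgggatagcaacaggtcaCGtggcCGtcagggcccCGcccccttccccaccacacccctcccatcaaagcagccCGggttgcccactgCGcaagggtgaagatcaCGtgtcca
Hmga2 promoter: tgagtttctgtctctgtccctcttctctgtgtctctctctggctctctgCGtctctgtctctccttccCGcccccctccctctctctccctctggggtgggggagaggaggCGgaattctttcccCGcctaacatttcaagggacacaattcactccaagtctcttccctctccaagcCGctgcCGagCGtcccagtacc
Ctdsp2 TSS-distal peak: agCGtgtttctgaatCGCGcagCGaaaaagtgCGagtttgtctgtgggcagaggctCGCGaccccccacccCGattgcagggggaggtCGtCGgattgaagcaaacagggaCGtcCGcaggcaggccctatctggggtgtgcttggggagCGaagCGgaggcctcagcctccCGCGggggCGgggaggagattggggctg
Shortest TSS-distal peak: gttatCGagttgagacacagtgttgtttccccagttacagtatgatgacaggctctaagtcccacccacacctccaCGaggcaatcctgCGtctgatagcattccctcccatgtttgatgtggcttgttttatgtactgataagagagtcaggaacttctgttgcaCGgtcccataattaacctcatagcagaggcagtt
Enhancer near Mdm2: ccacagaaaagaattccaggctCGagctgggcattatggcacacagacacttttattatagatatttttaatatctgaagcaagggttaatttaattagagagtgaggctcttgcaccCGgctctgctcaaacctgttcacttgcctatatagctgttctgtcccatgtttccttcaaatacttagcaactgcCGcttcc

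The Mdm2 sequence had 22 CpGs and a GC content of 74%, the Cdk4 sequence 11 CpGs and 64%, and the Hmga2 sequence 7 CpGs and 58.5%. The Ctdsp2 peak contains a TSS but is counted as TSS-distal, because its centre lies 1051 bp from the nearest TSS. Its sequence resembled the promoters in base composition, with 17 CpGs and a GC content of 65.5%. The peak of the shortest width had 4 CpGs and a GC content of 47%, and the enhancer 3 CpGs and 42.5%. The Cdk4 sequence held 4 copies of the E-box CACGTG, a motif read by MYC and related factors, which can be seen as caCGtg. Such a match describes letters and does not show that a factor binds.

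To describe the segment, the 2 lists were counted per Mb. Promoter peaks were present at 8.56 per Mb (214 peaks), TSS-distal peaks at 9.04 per Mb (226 peaks) and enhancers at 20.6 per Mb (514 regions). On the rest of chromosome 10 the same densities were 6.66, 2.80 and 15.5 per Mb, and on the other autosomes 6.90, 2.99 and 13.0 per Mb. The segment thus had 1.29 times the promoter peaks, 1.33 times the enhancers and 3.23 times the TSS-distal peaks of the rest of its chromosome per Mb. There were 1.06 TSS-distal peaks per promoter peak in the segment, 0.420 on the rest of chromosome 10 and 0.433 on the other autosomes. The segment makes up 25 of the 130.695 Mb of the chromosome and held 226 of its 522 TSS-distal peaks. Whether the cells carry extra copies of this segment was not tested.

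The TSS-distal peaks were spread over most of the segment (bar chart of counts per 1 Mb window). Of its 25 windows of 1 Mb, 20 held more TSS-distal peaks than the upper quartile of windows on the rest of the chromosome, which was 4. The median was 8 per window, with quartiles of 5 and 13 and a range of 0 to 27, against a median of 2 and a range of 0 to 16 in 105 windows elsewhere on chromosome 10. Assembly gaps make up 3.43% of the rest of the chromosome and 0% of the segment, and windows were not filtered for gaps. At least 10 TSS-distal peaks were found in 12 of 25 windows of the segment, in 4 of 105 windows on the rest of the chromosome and in 109 of 2342 windows on the other autosomes. The ranges overlapped, and the window with 16 lay outside the segment, 14 Mb before its start.

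**Figure D1:**
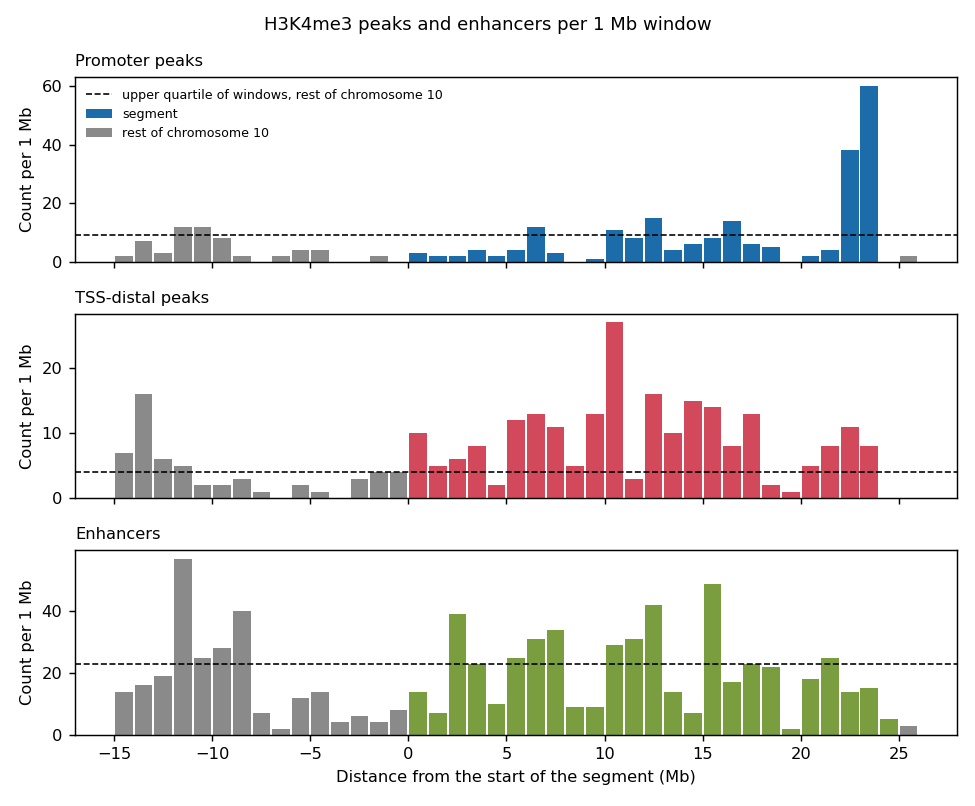
Counts of promoter peaks, TSS-distal peaks and enhancers in each 1 Mb window, by distance from the start of the segment in Mb; coloured bars lie in the segment, grey bars outside it, and the dashed line is the upper quartile of windows on the rest of chromosome 10. TSS-distal peaks rise above this line in 20 of 25 windows, whereas 98 of the 214 promoter peaks stand in 2 windows near the end.

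The window from 115000001 to 116000000 was the densest, with 27 TSS-distal peaks, a count reached by 4 of the 2342 windows on the other autosomes. It also held 11 promoter peaks and 29 enhancers, and contains Tph2, Lgr5 and Tspan8. Of its 27 TSS-distal peaks 4 overlapped an enhancer, and the median width was 237 bp. The window from 117000001, with Frs2 and Mdm2, followed with 16 TSS-distal peaks, 15 promoter peaks and 42 enhancers. The window from 119000001, which covers most of the scaffold gene Grip1, had 15 TSS-distal peaks beside 6 promoter peaks and 7 enhancers, and 0 of the 15 overlapped an enhancer. The window from 120000001, with Hmga2, had 14 TSS-distal peaks and 49 enhancers, and 7 of the 14 overlapped an enhancer. The next were the windows from 111000001, 114000001 and 122000001, with 13 TSS-distal peaks each. Enhancers were most numerous in the Hmga2 window with 49, the Mdm2 window with 42 and the window from 107000001, which contains Ptprq, with 39.

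Promoter peaks were more concentrated in a few windows of the segment than TSS-distal peaks were. The windows from 127000001 and 128000001 held 38 and 60 promoter peaks but 11 and 8 TSS-distal peaks. These gene-dense windows contained 46 and 51 of the 252 protein-coding genes of the segment, including Cdk4, Gli1, Stat6, Cdk2 and Myl6. As many as 60 promoter peaks were found in 1 of the 2342 windows on other autosomes. TSS-distal peaks outnumbered promoter peaks in 18 of 25 windows of the segment and in 17 of 105 windows on the rest of the chromosome. Among windows with at most 6 promoter peaks, the median was 8 TSS-distal peaks in the 17 windows of the segment and 1 in the 63 windows elsewhere. Among windows with over 6, the median was 12 in the 8 windows of the segment and 4 in the 42 windows elsewhere. Across windows, Spearman's rho between the promoter and TSS-distal counts was 0.55 in the segment (25 windows) and 0.59 on the rest of the chromosome (105 windows), as a description of neighbouring windows that share libraries.

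**Figure D2:**
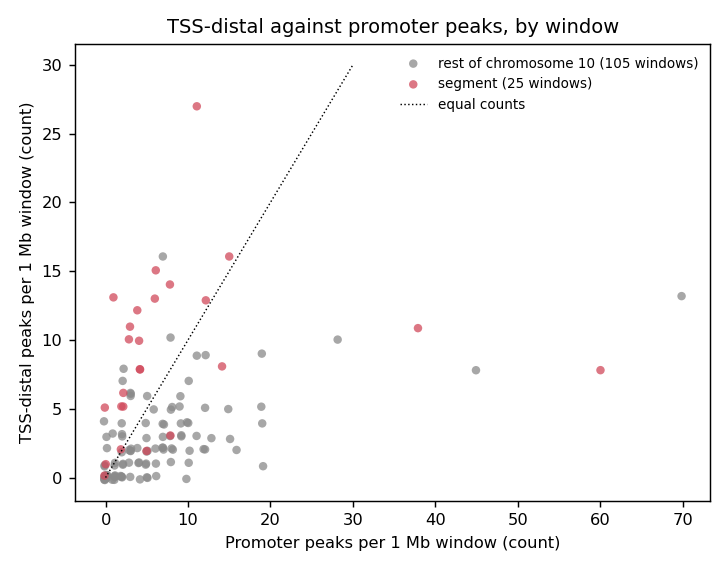
TSS-distal peaks against promoter peaks, as counts per 1 Mb window, for 25 windows of the segment and 105 windows of the rest of chromosome 10, with points shifted by up to 0.2 so that ties can be seen; the dotted line marks equal counts. At the same number of promoter peaks most windows of the segment lie above those of the rest, and the window with 27 TSS-distal peaks stands at the top.

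The segment was not uniform. With boundaries set after the counts were seen, the first 8 Mb, from 105000001 to 113000000, had 8.38 TSS-distal peaks and 22.9 enhancers per Mb beside 4 promoter peaks per Mb. In the gene-poor 2 Mb from 113000001 to 115000000, with 1 protein-coding gene start, 18 TSS-distal peaks stood beside 1 promoter peak and 18 enhancers. The 8 Mb from 115000001 to 123000000, which carry Mdm2 and Hmga2, had 13.3 TSS-distal peaks and 26.5 enhancers per Mb. The density then dropped. The 3 Mb from 123000001 to 126000000 had 2.67 TSS-distal peaks per Mb, close to the 2.80 of the rest of the chromosome. All 8 of these peaks overlapped an enhancer, against 35 of 191 in the 18 Mb before. Of these 8, however, 4 lay together within 3.04 kb in Lrig3. The same 3 Mb include the longest interval between neighbouring TSS-distal peaks, 1498 kb from 124288894 to 125787010. This interval still held 11 enhancers and 1 promoter peak. The density was 9 per Mb again from 126000001 to 129000000, the stretch with Cdk4. The last 1 Mb, from 129000001, held 51 olfactory receptor (Olfr) genes among its 52 protein-coding genes, 0 peaks and 5 enhancers.

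The limits of the segment are round positions. The last peak before it was a TSS-distal peak of 308 bp that starts at 104682232, and the first peak inside it was a TSS-distal peak of 200 bp that starts at 105322786 in Tmtc2, a gene for an endoplasmic reticulum protein. The 1 Mb before the segment held 4 TSS-distal peaks, 0 promoter peaks and 8 enhancers, and the first 1 Mb inside held 10, 3 and 14. At the other end, the last peak inside was the promoter peak of Itga7, which ends at 128934881, and the first peak beyond was a promoter peak of 501 bp that starts at 130470265.

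The TSS-distal peaks of the segment were mostly narrow. They had a median width of 252.5 bp (quartiles 214.25 and 348.75), compared with 286.5 bp (214.75 and 488) on the rest of the chromosome and 288 bp (220 and 486) on the other autosomes. Widths of at least 500 bp were found in 24 of 226, or 10.6% (95% Wilson interval 7.24 to 15.3), against 71 of 296, or 23.99% (19.5 to 29.2), on the rest of the chromosome. The interval covers counting error only. At the shortest width in the list, 200 bp, were 12.8% (9.08 to 17.8) in the segment and 16.9% (13.1 to 21.6) on the rest, with overlapping intervals. Promoter peaks had similar widths in both, with medians of 1026 and 962 bp, as did enhancers, with 378 and 385 bp.

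The extra TSS-distal peaks were therefore unevenly shared among width classes (bar chart of density ratios). Peaks over 200 and under 300 bp wide were present at 4.76 per Mb in the segment and 0.984 on the rest of the chromosome, a ratio of 4.84. For peaks of 300 to under 500 bp the ratio was 3.22, and for the shortest peaks of 200 bp it was 2.45. Peaks of at least 500 bp were at 0.960 and 0.672 per Mb, a ratio of 1.43, close to that of promoter peaks and enhancers. By position, the ratio was 2.29 for peaks 1 to 3 kb from a TSS, 3.13 at 3 to 10 kb, 4.38 at 10 to 50 kb and 3.79 beyond 50 kb. Narrow peaks under 300 bp without an enhancer and at least 3 kb from a TSS numbered 114 in the segment. They were at 4.56 per Mb against 0.833 on the rest of the chromosome, a ratio of 5.48. This class joins limits that had high ratios, such as 3.39 without an enhancer, so its ratio describes that combination. Wide peaks of at least 500 bp without an enhancer numbered 8, at 0.320 against 0.369 per Mb, a ratio of 0.867.

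**Figure D3:**
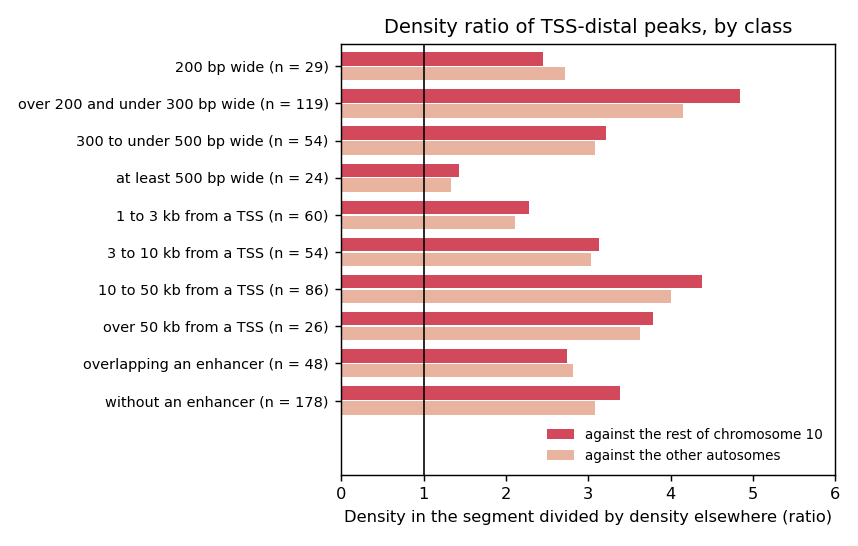
Density of TSS-distal peaks in the segment divided by that on the rest of chromosome 10 (dark bars) and on the other autosomes (light bars), for classes of width, distance to a TSS and overlap with an enhancer; n is the number of peaks in the segment and the vertical line marks a ratio of 1. The ratio is 4.84 for peaks over 200 and under 300 bp and 1.43 for peaks of at least 500 bp, against the rest of the chromosome.

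It was then asked how often the TSS-distal peaks met an enhancer. Over all chromosomes 22.4% of TSS-distal peaks overlapped at least 1 base of an enhancer. In the segment 48 of 226 did, or 21.2% (95% Wilson interval 16.4 to 27.03), a share near this background, and on the rest of chromosome 10 the share was 74 of 296, or 25% (20.4 to 30.2). Width separated them. Of the 24 wide TSS-distal peaks of at least 500 bp, 16 overlapped an enhancer (66.7%, 46.7 to 82.0), and of the 202 narrower ones 32 did (15.8%, 11.5 to 21.5). On the rest of the chromosome the shares were 45.1% (34.0 to 56.6) and 18.7% (14.1 to 24.3). Although the enhancer list was made without regions around TSSs, 40 of the 514 enhancers (7.78%, 5.77 to 10.4) were centred within 1 kb of a TSS in the annotation used here, and 11 of 214 promoter peaks (5.14%, 2.89 to 8.97) overlapped an enhancer. Seen from the enhancers, 53 of 514 overlapped a peak in the segment, or 10.3% (7.97 to 13.2), against 6.85% (5.72 to 8.18) on the rest of the chromosome. The median distance of an enhancer to the nearest peak was 25337 bp in the segment and 45366 bp on the rest. That of a TSS-distal peak to the nearest other one was 19865.5 and 44778 bp. The share of enhancers that overlapped a peak and these distances depend on peak density. The segment was chosen on that density, so they are not separate traits.

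With respect to genes, 107 of the 226 TSS-distal peaks (47.3%, 40.9 to 53.8) lay outside all annotated genes, where 52.3% of the bases of the segment lie. On the rest of the chromosome 39.2% (33.8 to 44.9) of the TSS-distal peaks and 50.0% of the bases lay outside genes. A further 98 peaks of the segment (43.4%, 37.1 to 49.9) were in a protein-coding gene that has a promoter peak, against 52.7% (47.0 to 58.3) on the rest. The median distance to the nearest TSS was 9754 bp in the segment and 5079.5 bp elsewhere on the chromosome.

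In CpG islands and GC content, the TSS-distal peaks of the segment were nearer to its enhancers than to its promoter peaks. A CpG island, called here from the reference sequence, overlapped 148 of 214 promoter peaks (69.2%, 62.7 to 74.96), 10 of 226 TSS-distal peaks (4.42%, 2.42 to 7.95) and 11 of 514 enhancers (2.14%, 1.199 to 3.79). On the rest of the chromosome the shares were 73.0%, 10.1% (7.19 to 14.1) and 1.65%. Among TSS-distal peaks without an enhancer the shares were 4 of 178 in the segment (2.25%, 0.877 to 5.63) and 23 of 222 elsewhere (10.4%, 7.003 to 15.1). Among those overlapping an enhancer they were 6 of 48 (12.5%, 5.86 to 24.7) and 7 of 74 (9.46%, 4.66 to 18.3), with overlapping intervals. Islands were scored over whole peaks, and the TSS-distal peaks of the segment were narrower and farther from a TSS. These shares were not compared at like width or distance. The median GC content of the central 200 bp was 57.5% for promoter peaks, 48.5% for TSS-distal peaks and 48% for enhancers of the segment, beside 41.5% for all 200 bp tiles of the segment. Repeats made up 17.3% of the bases of TSS-distal peaks and 17.3% of those of enhancers, against 31.8% of the whole segment.

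Short motifs were counted on both strands in the central 200 bp. The GC box GGGCGG was present in 32.7% of promoter peaks, 5.75% of TSS-distal peaks and 5.06% of enhancers of the segment, and in 2.14% of all its 200 bp tiles. The AP-1 site TGANTCA, where N is any base, was present in 15.0% of enhancers, 8.85% of TSS-distal peaks and 4.67% of promoter peaks, beside 6.06% of all tiles. AP-1 factors are abundant at fibroblast enhancers. On the rest of chromosome 10 the AP-1 site was in 15.8% of enhancers and 6.42% of TSS-distal peaks. CCAAT was in 19.6% of promoter peaks, 19.5% of TSS-distal peaks and 24.7% of enhancers, below the 28.5% of all tiles. The E-box, added after the Cdk4 sequence was seen, was in 3.74% of promoter peaks, 3.54% of TSS-distal peaks, 2.53% of enhancers and 2.24% of tiles of the segment, and in 5.11% of promoter peaks on the rest of the chromosome.

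Genes were examined next. A peak lay within 1 kb of a TSS in 144 of the 252 protein-coding genes of the segment (57.1%, 51.0 to 63.1), near the 59.1% of all 21938 protein-coding genes. The 52 Olfr genes, which are used in olfactory neurons, had 0 peaks, which with 0 of 52 allows a share of up to 6.88% (upper Wilson limit). Without them the share was 144 of 200, or 72.0% (65.4 to 77.8), against 67.1% (63.7 to 70.4) on the rest of the chromosome and 62.3% over all chromosomes. The widest peak per gene had a median of 1434 bp in the 144 genes, 1288 bp in 505 genes of the rest of the chromosome and 1255 bp in 12966 genes in all.

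Mdm2 (117688875 to 117710758, minus strand) had 2 promoter peaks, of 1881 and 464 bp. They were separated by 96 bp, and the annotated 5′ end of the gene fell into this gap. The wider peak lay downstream of it and the narrower one upstream. Its width exceeded the widest peak of 80.7% of the protein-coding genes with a peak. The body of Mdm2 held 0 TSS-distal peaks and 0 enhancers, but 9 enhancers lay within 50 kb of it. The nearest enhancer, of 1364 bp, was centred 7.28 kb from the 5′ end. The neighbouring gene Cpm had a peak of 1257 bp, and Slc35e3, Nup107 and Rap1b on the other side each had more than 1 promoter peak. Within 150 kb of the 5′ end of Mdm2 there were 11 promoter peaks, 2 TSS-distal peaks and 9 enhancers.

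Cdk4 (127063534 to 127067920, plus strand) had the same arrangement. A peak of 273 bp lay upstream and one of 1748 bp downstream of a gap of 234 bp that contained the 5′ end. Within 150 kb there were 17 promoter peaks, 4 TSS-distal peaks and 7 enhancers among 16 protein-coding gene starts. The nearest enhancer was centred 73.2 kb away, so that 0 enhancers lay within 50 kb. Tspan31, which overlaps the 3′ end of Cdk4 on the other strand, had 3 promoter peaks of 1291, 772 and 275 bp. Among protein-coding genes whose 5′ end lay in a peak or in a gap of at most 500 bp between 2 peaks, the gap was seen in 10 of 129 in the segment (7.75%, 4.26 to 13.7), 51 of 405 on the rest of the chromosome (12.6%, 9.71 to 16.2) and 10.9% on the other autosomes. This count was added after the values of Mdm2 and Cdk4 were seen, and the other 8 genes were Mars, Mon2, Nap1l1, Osbpl8, Phlda1, Ptges3, Rassf3 and Rxylt1. In all 10 genes the peak downstream of the gap was the wider. Which side was wider was not counted outside the segment, so this is not read as a trait of these genes. The study describes H3K4me3 as typically stronger 3′ of TSSs.

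Hmga2 (120361275 to 120476469, minus strand) differed from both. Its promoter peak of 3902 bp, the third widest of the segment, was continuous across the 5′ end and exceeded the widest peak of 99.2% of genes with a peak. TSS-distal peaks of 1032 and 366 bp flanked it on either side. The body of Hmga2 held 8 enhancers, and 12 lay in the body and 50 kb around it. Within 150 kb of its 5′ end there were 19 enhancers and 4 TSS-distal peaks but 1 promoter peak, that of Hmga2 itself, and 1 protein-coding gene start. The 3 neighbourhoods thus ranged from many enhancers around 1 promoter to many promoters with enhancers at a distance (map of the 3 genes).

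**Figure D4:**
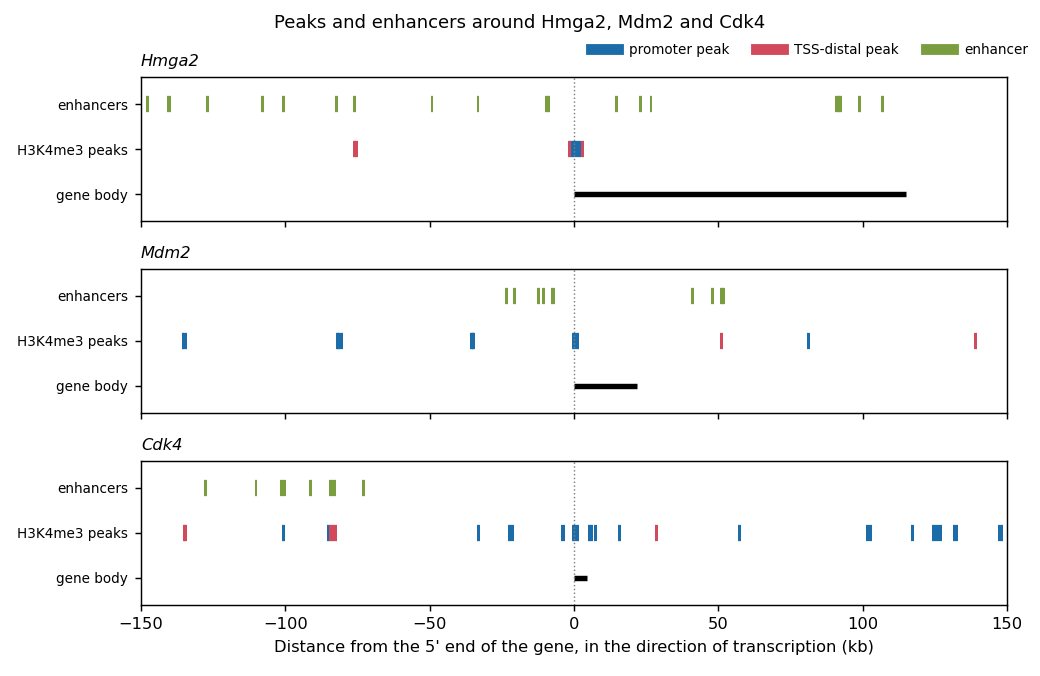
Promoter peaks, TSS-distal peaks and enhancers within 150 kb of the 5′ ends of Hmga2, Mdm2 and Cdk4, by distance in kb in the direction of transcription; regions narrower than 1 kb are drawn 1 kb wide and the black bar is the gene body. Hmga2 has 19 enhancers and 1 promoter peak in this range, Mdm2 9 and 11, and Cdk4 7 and 17, with the nearest enhancer of Cdk4 at 73.2 kb.

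Other genes were grouped by role. The groups were picked by hand with earlier results known. Their counts of genes with a peak and their median widths therefore describe the choice, and nothing is read from them. The counts were 8 of 8 for p53 and cell cycle, 7 of 7 for chromatin and DNA binding, and 17 of 17 for signalling. They were 13 of 13 for cytoskeletal, membrane and secreted proteins, 13 of 13 for housekeeping and 4 of 12 for other cell types. A peak was present in 59.1% of all protein-coding genes and 72.0% of those of the segment other than Olfr genes. The p53 and cell cycle genes had a median widest peak of 1364.5 bp and a range of 726 bp at Mdm1, a centriole-binding protein, to 1881 bp at Mdm2. Cdk2, a kinase of the G1 to S transition, had a peak of 1387 bp, and E2f7, a repressor of E2F target genes, peaks of 1342 and 207 bp. Their bodies held 0 enhancers and 1 TSS-distal peak in sum, the latter in Pa2g4. The genes grouped under chromatin and DNA binding, which include the protein kinase gene Dyrk2 and Cnot2, a subunit of the CCR4-NOT deadenylase, had a median of 2294 bp with or without these 2 genes, beside 1434 bp for genes with a peak in the segment and 1255 bp for all. Dyrk2 had a peak of 3974 bp, Mbd6, a methyl-CpG-binding domain protein, 2772 bp, and Baz2a, a subunit of a nucleolar remodelling complex, 2294 bp. Yeats4, a reader of acetylated histones, had 1414 bp. The bodies of these 7 genes held 17 enhancers, of which 8 were in Hmga2 and 6 in Cnot2.

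The 17 signalling genes had a median of 1437 bp. The widest were those of Nab2, a corepressor of EGR factors, with 3710 bp, Lrp1, a large endocytic receptor, with 3446 bp, and Stat6, a transcription factor of interleukin-4 signalling, with 2804 bp. The peak of 3710 bp also contains a TSS of Nemp1, so its width cannot be assigned to Nab2 alone. Gli1, a transcription factor of the Hedgehog pathway, had peaks of 1117 and 890 bp. Lgr5, a receptor for R-spondins, had a peak of 2101 bp, with 6 TSS-distal peaks in its body and 50 kb around it. The narrowest was at Stat2, a transcription factor of interferon signalling, with 732 bp. Frs2, an adaptor of fibroblast growth factor receptors, stood out by enhancers, with 10 in its body and 17 including 50 kb on each side. Lrig3 had a promoter peak of 1639 bp followed by 4 TSS-distal peaks in its body, all 4 of which overlapped an enhancer; it also belongs to the next group.

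The 13 genes for cytoskeletal, membrane and secreted proteins had a median of 1639 bp. Myl6, the non-muscle myosin light chain, had the widest peak of the segment with 4226 bp. Cd63, a tetraspanin, had 2661 bp, Pawr, a pro-apoptotic protein, 2593 bp, and Ppp1r12a, the myosin phosphatase targeting subunit, 2310 bp. The lowest were Mmp19, a matrix metalloproteinase, with 285 bp, and Ptprb, a receptor phosphatase of endothelial cells, with 556 bp. The 13 housekeeping genes ranged from 694 bp at Nup107 to 1662 bp at Usp15, with a median of 1238 bp.

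Of the 12 genes named as used mainly in other cell types, 4 had a peak, beside 59.1% of all protein-coding genes. As they were picked by hand, this share describes the choice. Ptprb, named above for endothelial cells and kept outside these 12, also had a peak. No peak was listed at the muscle regulators Myf5 and Myf6, at the immune genes Ifng, Il22, Lyz1 and Lyz2, or at Tph2 and Tac2, which neurons use for serotonin and neurokinin B. The 4 with a peak were Syt1, a synaptic vesicle protein, with 1737 bp, Avpr1a, a vasopressin receptor, with 1506 bp, Kcnc2, a potassium channel, with 1188 bp, and Pmel, a melanosome protein, with 1387 bp. The peak at Pmel, from 128703696 to 128705082, is also that of Cdk2, whose start lies head to head with it, so the list cannot assign it to either. The absence of a peak from the list does not show the absence of the mark.

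**Figure D5:**
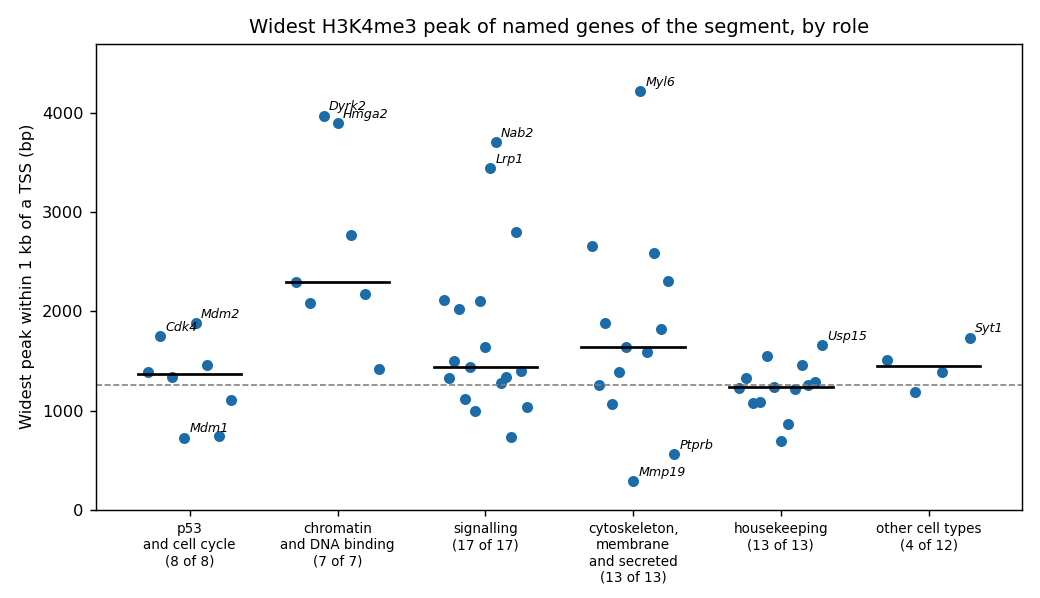
Width in bp of the widest H3K4me3 peak within 1 kb of a TSS for named genes of the segment, grouped by role; each point is a gene with a peak, the bar is the group median, the dashed line is the median of 1255 bp over all protein-coding genes with a peak, and the numbers give genes with a peak of genes named. The groups were picked by hand, so nothing is read from the order of their medians. The median of chromatin and DNA binding, which also holds Dyrk2 and Cnot2, is 2294 bp. The 13 housekeeping genes lie between 694 and 1662 bp.

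The 5 widest peaks of the segment were those at Myl6, Dyrk2, Hmga2, Nab2 with Nemp1, and Lrp1. The widest peaks classed as TSS-distal lay close to genes as well. The peak of 2879 bp from 126978641 to 126981519 contained a TSS of Ctdsp2, a phosphatase gene, but its centre was 1051 bp from the nearest TSS. A peak of 2026 bp in Rassf3 was centred 1019.5 bp from a TSS, one of 1393 bp in Baz2a 1139 bp, and the 1032 bp peak at Hmga2 2899 bp. The peak of 971 bp from 127511620 to 127512590 was 2862 bp from Ndufa4l2 and outside annotated genes. Of these 5 peaks, 3 overlapped an enhancer, those at Ctdsp2, Baz2a and Ndufa4l2.

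By gene body, TSS-distal peaks were most numerous in Grip1, which had 9 in its body of 633 kb, each between 209 and 323 bp wide and with 0 of 9 overlapping an enhancer, beside 3 enhancers in all. Ppm1h, a phosphatase gene, had 6 in 267 kb, of which 3 overlapped an enhancer, and 15 enhancers. Tmtc2 and Trhde, the gene for a peptidase that inactivates thyrotropin-releasing hormone, had 5 each. By enhancers the leading genes were Ptprq with 18, Ppm1h with 15 and Nav3, a microtubule-binding protein, with 14. No peak was found within 1 kb of a TSS of Ptprq, a receptor phosphatase of the inner ear, and its body held 1 TSS-distal peak.

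When TSS-distal peaks with at most 50 kb between neighbours were joined, the 226 peaks formed 121 groups, of which 73 were 1 peak alone and 10 had at least 5 peaks. These 10 groups held 55 peaks. The largest had 8 peaks in 50.9 kb, from 112449344 to 112500270 at the 3′ end of Kcnc2 and beyond, with a median width of 227.5 bp, and 1 of the 8 overlapped an enhancer. The next had 7 peaks in 106 kb, from 114961845 to 115067934, outside protein-coding genes, with 0 overlapping an enhancer. A group of 5 peaks from 119330538 to 119407037, with a median width of 200 bp, also had 0 and lay in a stretch of 76.5 kb that contained 0 enhancers. A contrasting group was that from 128037203 to 128098215 at Naca, Ptges3, Atp5b and Baz2a, where 5 peaks had a median width of 452 bp.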

How the data were processed

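H3K4me3 ChIP-seq of iMEF cells was represented by a deposited list of peak positions, used beside a deposited list of putative enhancers. Per the methods of the study, the authors trimmed reads with Trim Galore, aligned them with BWA to mm10 (GRCm38), filtered them with SAMtools, merged replicates with Picard and called narrow peaks with MACS2, as also named in the submitters' processing notes. Putative enhancers were defined by the authors from H3K4me1, H3K27ac and ATAC signals of control samples, without regions around TSSs of known promoters. The lists hold 0 columns of values per sample, so neither depth nor replicate error could be obtained and no test was run. Peak starts were taken to count from 0 and were raised by 1. TSSs were those of all transcripts of GENCODE M21, which may differ from the set the authors used: 7.78% of the enhancers of the segment were centred within 1 kb of one. Of the peaks, 74 on other sequences were left out of densities. CpG islands were called on the repeat-masked reference (over 200 bp, GC over 50%, observed to expected CpG over 0.6). Sequences were printed from outside annotated untranslated regions, and for Cdk4 this left the 200 bases before the 5′ end. Shares carry Wilson 95% intervals, for counting error only. The segment, the genes and the lists were chosen with earlier results of these data known. Named were a fixed gene list by role, the leading windows, the 5 widest peaks of each kind, and the 3 genes with most enhancers or TSS-distal peaks in the body, with ties. Functions were tested on simulated data. Python 3.11.15, NumPy 2.4.6, SciPy 1.17.1 and Matplotlib 3.10.9 were used.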

Additional observations from a re-analysis of the deposited data

How the results depend on the processing

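No paired analysis was possible because regions carry no sample of origin. Values that a setting cannot touch, such as enhancer densities under another set of TSSs, were left out. Of the other 71 values recomputed under 15 settings, 64 stayed within 1.5 times the reported value, or within its 95% interval for shares and medians. With peaks of at least 500 bp, TSS-distal peaks were at 0.960 per Mb in the segment, 1.43 times the rest of chromosome 10, and 66.7% of them overlapped an enhancer. With the segment ended at 125 Mb, without the gene-dense end, promoter peaks were at 5.5 per Mb and the ratio to the rest reversed to 0.753, whereas that of TSS-distal peaks was 3.27. The median width of promoter peaks was 1641.5 bp once peaks within 1 kb were joined. Without Olfr genes 72.0% of genes had a peak. The ratio of TSS-distal densities otherwise ranged from 2.57, with 1 TSS per gene, to 3.79, with a promoter window of 3 kb. It was 3.12 with assembly gaps left out of the lengths and 2.96 without the densest window. RefSeq TSSs and the omission of that window were chosen after seeing the data. The lists give no read depth behind a peak.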

Other observations

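Outside the segment, the densest window of TSS-distal peaks on chromosome 10 ran from 91000001 to 92000000, with 16 such peaks, 7 promoter peaks and 16 enhancers. The window with the most enhancers on the chromosome, from 93000001 to 94000000, had 57 enhancers but 5 TSS-distal peaks and 12 promoter peaks. In the 3 windows just before the segment, enhancers numbered 4 to 8 and TSS-distal peaks 3 or 4. Of the 214 promoter peaks of the segment, 14 (6.54%, 95% Wilson interval 3.94 to 10.7) had TSSs of non-coding genes alone within 1 kb.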
